A study of Rattus norvegicus with 11 samples.

Results

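The 3 serotonin receptor genes described in the medial prefrontal cortex (mPFC) of the rat were Htr1a (ENSRNOG00000010254), Htr2a (ENSRNOG00000010063) and Htr2c (ENSRNOG00000030877). They were taken by these Ensembl identifiers from a table of 15607 genes, and all 3 were found there in every library. The libraries were 4 from diestrus females, 3 from proestrus females and 4 from males, all of them Sprague-Dawley rats 2 to 3 months old for which the labels name no transgene and no drug. Tissue punches held the infralimbic, prelimbic and cingulate areas together, and messenger RNA selected by its poly(A) tail was sequenced. Diestrus is the stage of the estrous cycle with low, and proestrus the stage with high, levels of ovarian hormones. Because diestrus females were killed early in the first day of that stage and proestrus females in the early afternoon, the stage and the hour cannot be told apart. A further proestrus library was set aside as an outlier by the authors and was not analysed here, so that the proestrus spread below is the spread of the libraries that remained.

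Serotonin reaches the prefrontal cortex from the raphe nuclei of the brainstem and acts there on several receptors that couple to different G proteins. The Htr1a receptor couples to Gi/o proteins, which lower cyclic AMP and open potassium channels, and therefore inhibits the neurons that carry it. The Htr2a and Htr2c receptors couple to Gq proteins, which activate phospholipase C and release calcium from internal stores. In the prefrontal cortex, Htr1a and Htr2a are found largely on pyramidal neurons, with both also present on interneurons, and these receptors are known as the targets of anxiolytic, antipsychotic and hallucinogenic drugs.

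Between 15.9 and 24.6 M reads per library fell on genes. The 20 most abundant genes took 13.4% to 13.9% of these reads in diestrus females, 11.3% to 13.4% in proestrus females and 12.01% to 13.42% in males. The values below are DESeq2-normalized counts, in which the reads of a gene are divided by 1 size factor per library to account for depth. They are not divided by the length of the transcript, so that a count of Htr1a cannot be set against a count of Htr2c as a level. Markers of the tissue and of its cell types were not checked, because the tables give identifiers without gene symbols. In tissue of mixed cells, fewer cells of a type and less RNA per cell cannot be told apart.

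Htr1a, the inhibitory receptor of the set, was counted least often. In diestrus females its normalized count was 54.9, 65.4, 80.7 and 109 in the libraries of replicates 2, 3, 4 and 5. In proestrus females it was 139, 121 and 136 in replicates 1, 3 and 5. Every proestrus library was thus above every diestrus library, although diestrus replicate 5 came close to the lowest of them. In males the normalized count was 111, 68.0, 124 and 92.9 in replicates 2, 3, 4 and 5, a range that overlapped with both female groups. The group means were 77.4 ± 23.4 in diestrus (SD, n = 4), 99.0 ± 24.3 in males (SD, n = 4) and 132 ± 9.58 in proestrus (SD, n = 3).

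Htr2a, which drives phospholipase C in cortical neurons, had the same order of group means with a wider spread. Diestrus libraries held 60.7, 66.5, 110.3 and 163 normalized counts in replicates 2, 3, 4 and 5. Proestrus libraries held 189.6, 203 and 198 in replicates 1, 3 and 5. The proestrus libraries were close to each other and again above all of the diestrus libraries. Males held 128, 72.0, 210.4 and 188 in replicates 2, 3, 4 and 5, so that male replicate 4 exceeded every female and male replicate 3 lay within the diestrus range. The group means were 100.2 ± 47.6 in diestrus (SD, n = 4), 149.6 ± 62.2 in males (SD, n = 4) and 197 ± 6.92 in proestrus (SD, n = 3).

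Htr2c, an X-linked Gq-coupled receptor whose transcript is known to undergo RNA editing, was arranged differently. Diestrus libraries held 329, 196, 242 and 338 normalized counts in replicates 2, 3, 4 and 5. Proestrus libraries held 401, 228 and 365 in replicates 1, 3 and 5, and males held 226, 130.0, 267 and 350.3 in replicates 2, 3, 4 and 5. All 3 groups overlapped, and the library of replicate 3 was the lowest of its group in each of them. The group means were 243 ± 91.6 in males (SD, n = 4), 276 ± 68.9 in diestrus (SD, n = 4) and 331 ± 91.3 in proestrus (SD, n = 3).

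**Figure D1:**
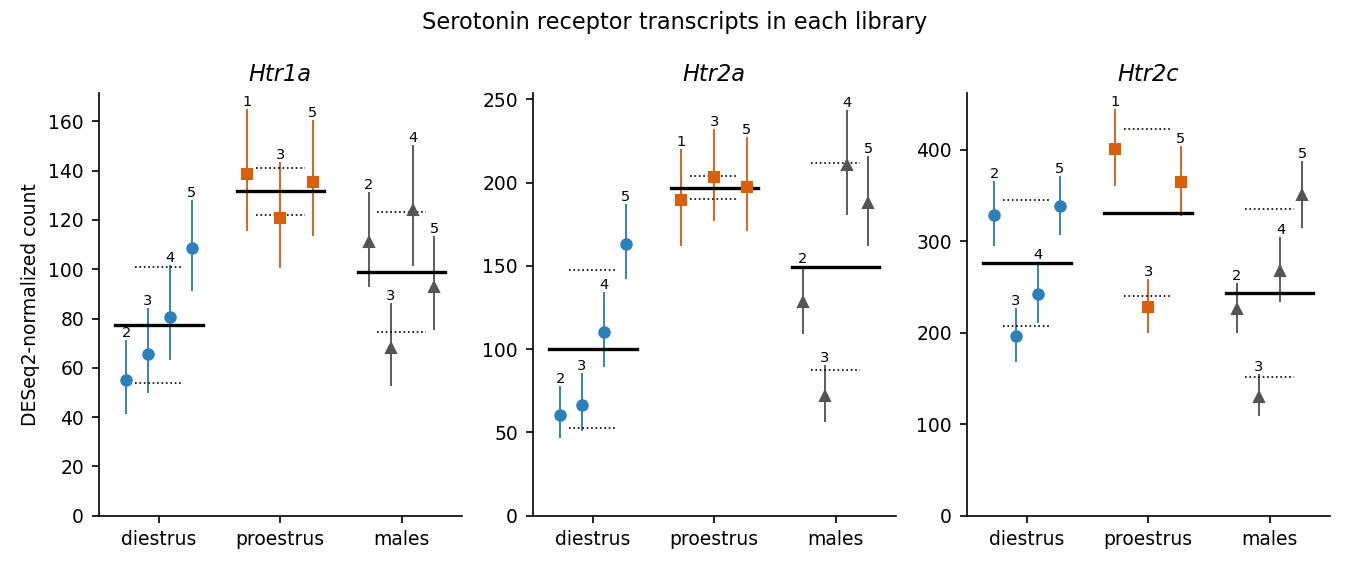
DESeq2-normalized counts (linear axes from 0) of Htr1a, Htr2a and Htr2c in each library, grouped as diestrus, proestrus and males. Points are libraries with their replicate number, vertical lines are 95% exact Poisson intervals of the reads, solid bars are group means and dotted bars are 1 SD on either side. For Htr1a and Htr2a the proestrus points (121 to 139 and 189.6 to 203) lie above all diestrus points, whereas the groups overlap for Htr2c.

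Between proestrus and diestrus females, the question was whether the receptors differed with the stage of the estrous cycle. For Htr1a the ratio of proestrus to diestrus was 1.74-fold (95% interval 1.23 to 2.47), with a log2 fold change of 0.80 ± 0.23 (SE). For Htr2a the ratio was 2.12-fold (95% interval 1.24 to 3.61), a log2 fold change of 1.08 ± 0.36 (SE). For Htr2c it was 1.19-fold (95% interval 0.768 to 1.85), a log2 fold change of 0.25 ± 0.30 (SE). These intervals are those of each gene on its own, on the scale of log2(normalized count + 1), and are not widened for the number of genes tested.

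After Benjamini-Hochberg adjustment over all 15607 genes, none of the 3 receptors passed the false discovery rate of 0.05 in limma, whose adjusted p was 0.0839 for Htr1a, 0.109 for Htr2a and 0.581 for Htr2c. Of all genes, 2.45% were called higher in proestrus by this test. At an unadjusted limma p under 0.05, 2 of the 3 receptors were higher in proestrus, as were 15.2% of all genes. The unadjusted limma p was 0.00419 for Htr1a and 0.00941 for Htr2a. The same 2 receptors had all proestrus libraries above all diestrus libraries, an arrangement found in 15.0% of all genes. Among the fold changes of all genes, that of Htr1a stood at the percentile 93.9, that of Htr2a at 97.4 and that of Htr2c at 76.6. The edgeR quasi-likelihood test on the whole reads called none of the 3 receptors (adjusted p = 0.0918, 0.126 and 0.570 in the same order) and 2.61% of all genes higher in proestrus. DESeq2 called 1 receptor higher in proestrus, Htr1a, with an adjusted p of 0.0351, as it did 6.27% of the genes to which it gave an adjusted p. The adjusted p of DESeq2 was 0.0609 for Htr2a and 0.553 for Htr2c.

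Single libraries decided on which side of the threshold Htr1a and Htr2a fell. Without diestrus replicate 5, the diestrus library with the most Htr1a and Htr2a, the limma adjusted p was 0.0205 for Htr1a and 0.0270 for Htr2a. That fit called 1774 of the 15607 genes in either direction, against 395 with all libraries. Male replicate 3 entered this comparison only through the shared estimate of the spread. Without it the limma adjusted p was 0.0329 for Htr1a and 0.0369 for Htr2a, and 1147 genes were called. Without any other single library the adjusted p lay above 0.05 for both. With each of the 11 libraries left out in turn, the log2 fold change stayed between 0.65 and 0.98 for Htr1a, between 0.88 and 1.35 for Htr2a, and between 0.10 and 0.50 for Htr2c. Leaving out a male cannot change these fold changes. For Htr1a and Htr2a, whose proestrus libraries all lay above the diestrus libraries, leaving out a single library could not reverse the sign.

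**Figure D2:**
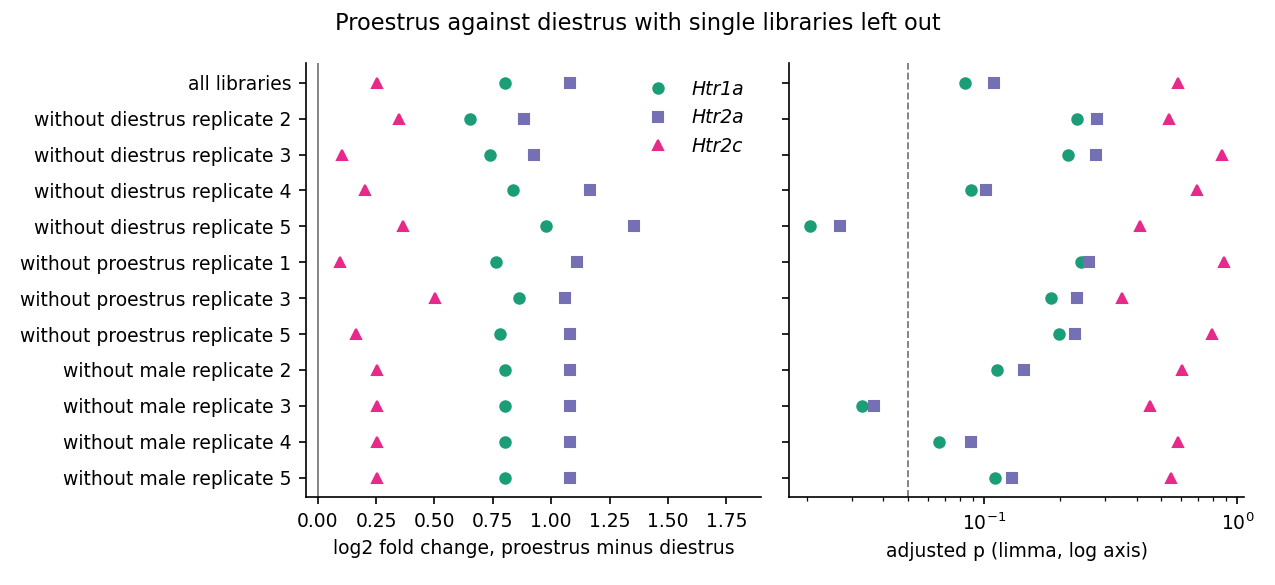
Proestrus against diestrus for Htr1a, Htr2a and Htr2c with all 11 libraries (top line) and with each library left out. The left panel gives the log2 fold change (proestrus minus diestrus) and the right panel the limma adjusted p on a log axis, with a dashed line at 0.05. All points of the left panel are above 0, as groups without overlap require for Htr1a and Htr2a. In the right panel, the points of Htr1a and Htr2a lie left of the dashed line only without diestrus replicate 5 or male replicate 3.

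The share of reads in the 20 most abundant genes was 13.65% in diestrus replicate 5, inside the range of the other diestrus libraries. It was 13.4% in male replicate 3, the male with the least Htr1a and Htr2a, and 12.01% to 12.17% in the other males. Among proestrus females, it was 11.3% and 11.8% in replicates 1 and 3 and 13.4% in replicate 5, against 13.4% to 13.9% in diestrus females. Proestrus replicate 5 had normalized counts of 136 for Htr1a and 198 for Htr2a. The part of this share in the receptor values was not tested.

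Males were compared with each female stage to ask whether the receptors differed by sex, and both comparisons use the same male libraries. Proestrus females had more Htr1a than males in 11 of 12 pairs of libraries, with a log2 fold change of 0.44 ± 0.23 (SE) and an adjusted p of 0.486 in limma. For Htr2a the log2 fold change was 0.51 ± 0.36 (SE), with 9 of 12 pairs higher in proestrus and a limma adjusted p of 0.562. For Htr2c it was 0.49 ± 0.30 (SE), with 10 of 12 pairs higher in proestrus and a limma adjusted p of 0.524. None of the 3 receptors was called in this comparison, in which 0.0833% of all genes were. The intervals reached from -0.06 to 0.94 for Htr1a, from -0.26 to 1.28 for Htr2a and from -0.15 to 1.13 for Htr2c, so that all of them included 0. Without male replicate 3 the log2 fold changes were 0.27 for Htr1a, 0.19 for Htr2a and 0.22 for Htr2c.

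In diestrus females compared to males, the estimates for Htr1a and Htr2a had the opposite sign. The log2 fold change of Htr1a was -0.36 ± 0.22 (SE), with diestrus higher in 3 of 16 pairs and a limma adjusted p of 0.590. That of Htr2a was -0.58 ± 0.33 (SE), with diestrus higher in 3 of 16 pairs and a limma adjusted p of 0.588. In libraries of the same replicate number, Htr2a was lower in diestrus for replicates 2, 3, 4 and 5. With that number as a block, the limma p of Htr2a was 0.0385 unadjusted and 0.337 adjusted. For Htr2c the estimate was 0.23 ± 0.27 (SE), with diestrus higher in 9 of 16 pairs and a limma adjusted p of 0.753. No receptor was called, against 0.128% of all genes. Without male replicate 3, the male with the lowest count of all 3 receptors, the estimate was -0.53 for Htr1a, -0.89 for Htr2a and -0.036 for Htr2c. Without diestrus replicate 2 it was -0.21 for Htr1a and -0.38 for Htr2a, and without male replicate 4 it was -0.24 and -0.38.

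With both stages pooled as females, Htr1a and Htr2a differed little from males on average. The log2 fold change of females against males was -0.02 ± 0.26 (SE) for Htr1a and -0.11 ± 0.38 (SE) for Htr2a, with females higher in 14 and 12 of 28 pairs. For Htr2c it was 0.34 ± 0.25 (SE), with females higher in 19 of 28 pairs, and it was 0.073 without male replicate 3. The limma adjusted p was 1.00 for each receptor, and 0.135% of all genes were called. In none of the 3 comparisons with males was a receptor called by limma, edgeR or DESeq2, and none had an unadjusted p under 0.05 in the fits of these tools to all 11 libraries of the DESeq2 table, or to its reads, without a block. Other fits gave a few lower values, listed below with the alternatives. Of 15607 genes, limma gave an unadjusted p under 0.05 to 1766 for proestrus against males, 1501 for diestrus and 754 for pooled females. Most genes thus had no such p, and its absence from 3 receptors says little. The sign of the pooled estimate changed for Htr1a with the tool, and for both Htr1a and Htr2a with 1 library left out, as given below with the other alternatives.

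**Figure D3:**
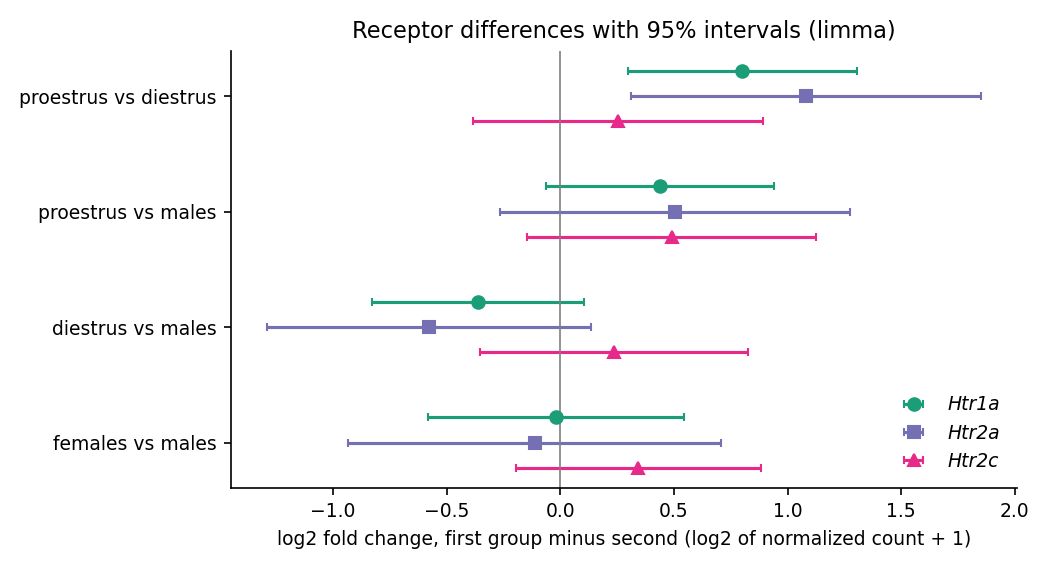
The log2 fold change (first named group minus second) of each receptor in the 4 comparisons, on the scale of log2(normalized count + 1), with 95% intervals from limma that are not adjusted for the number of genes. The intervals of Htr1a (0.30 to 1.30) and Htr2a (0.31 to 1.85) lie above 0 between proestrus and diestrus, and the other 10 intervals include 0.

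The order of the group means was diestrus, males, proestrus for both Htr1a and Htr2a. On the log2 scale, with diestrus set at 0 and proestrus at 1, the male mean stood at 0.45 for Htr1a and at 0.53 for Htr2a. Neighbours in this order overlapped and did not pass the tests given above. The male libraries reached down into the diestrus range and up into the proestrus range. For Htr2c the order was males, diestrus, proestrus, and no neighbours in it differed beyond their spread.

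The spread within groups was set against the error of counting reads. For Htr1a, with 56 to 139 reads per library, counting alone gives an error of 8.48% to 13.4%. It gives 6.84% to 12.8% for Htr2a and 4.81% to 8.77% for Htr2c. The coefficient of variation in proestrus was 7.28% for Htr1a and 3.51% for Htr2a, no larger than counting gives, with a chi-square per degree of freedom of 0.701 and 0.234. In diestrus it was 30.2% for Htr1a and 47.5% for Htr2a (chi-square per degree of freedom 7.92 and 24.6), and in males 24.5% and 41.6% (5.76 and 25.4). Htr2c varied beyond counting in every group, with coefficients of variation of 24.9% in diestrus, 27.6% in proestrus and 37.6% in males and chi-square values per degree of freedom of 17.0, 25.5 and 35.05. Separate animals are expected to differ by more than counting error, and the proestrus values are those left after the authors set 1 library aside. Whether the spread itself differed between groups was not tested. Nothing states which library came from which cage, although females were killed as cage pairs, so that the p-values measure the spread between these libraries.

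Htr1a and Htr2a varied together from library to library. Over the 11 libraries, Pearson's r of log2(normalized count + 1) was 0.93 and Spearman's rho 0.88 between these genes. After each group's mean was subtracted r was 0.88, and without the 2 libraries farthest from the median of Htr1a it was 0.86. Htr2c was less closely tied to either, with r of 0.45 and rho of 0.54 to Htr1a, and r of 0.53 and rho of 0.44 to Htr2a. After the group means were subtracted these r were 0.49 and 0.61, and without the 2 libraries farthest from the median they were 0.70 and 0.79. The r after subtraction of the group means moved with single libraries left out, from 0.15 to 0.74 for Htr1a and Htr2c and from 0.30 to 0.81 for Htr2a and Htr2c. With any single library left out, r stayed between 0.90 and 0.97 for Htr1a and Htr2a, but ranged from 0.31 to 0.72 for Htr1a and Htr2c and from 0.37 to 0.77 for Htr2a and Htr2c. Diestrus replicate 2 had the lowest Htr1a and Htr2a of all libraries with a high Htr2c of 329 normalized counts. The libraries share groups, size factors and the differences in composition given above, and these correlations are a description without a test.

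**Figure D4:**
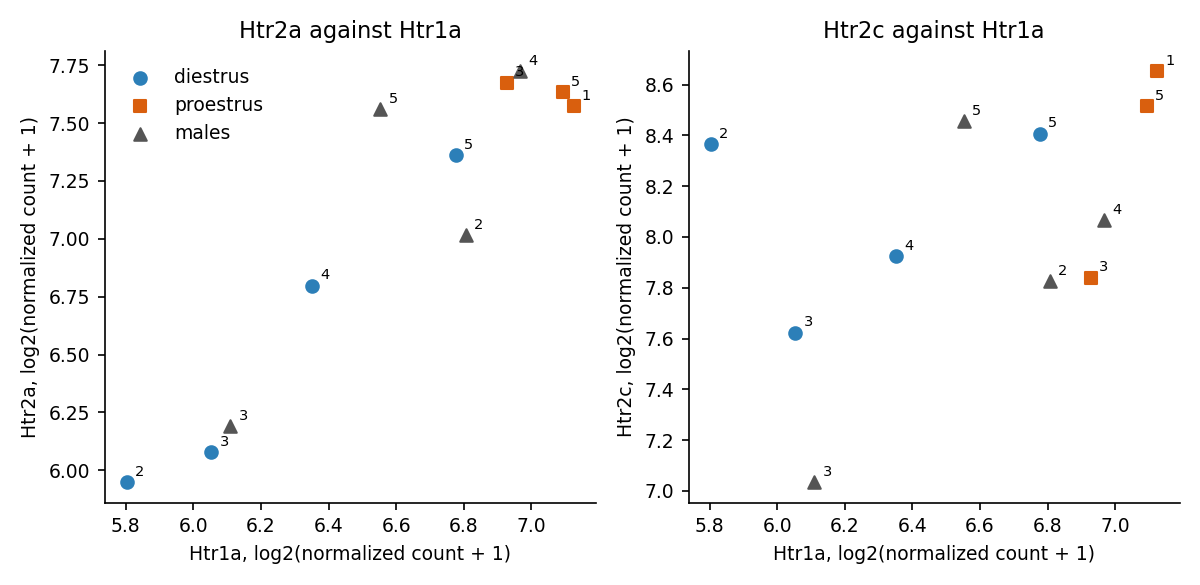
Htr2a (left) and Htr2c (right) against Htr1a over the 11 libraries, all as log2(normalized count + 1), with the replicate number beside each point and the group given by colour and shape. Htr2a follows Htr1a closely (r = 0.93), with diestrus replicates 2 and 3 and male replicate 3 at the low end, whereas the points of Htr2c are scattered (r = 0.45).

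A close correlation with Htr1a or Htr2a was common in these libraries. Among the 11730 other genes that averaged 50 or more normalized counts, 753 genes (6.42%) had an r above 0.9 with Htr1a, 1027 genes (8.76%) with Htr2a, and 11 genes (0.0938%) with Htr2c. Htr2a was the gene of rank 360 in likeness to Htr1a, and Htr1a the gene of rank 567 in likeness to Htr2a. The gene most like Htr1a was ENSRNOG00000008625 (r = 0.98), with 123 ± 46.0 normalized counts in diestrus (SD, n = 4), 167 ± 47.1 in males (SD, n = 4) and 226 ± 4.44 in proestrus (SD, n = 3). The gene most like Htr2a was ENSRNOG00000018158 (r = 0.99), with 666 ± 126 in diestrus (SD, n = 4), 843 ± 156 in males (SD, n = 4) and 938 ± 6.15 in proestrus (SD, n = 3). The gene most like Htr2c (r = 0.95), not named here under the limit on unnamed identifiers, had 304 ± 38.3 in diestrus (SD, n = 4), 273 ± 53.8 in males (SD, n = 4) and 307 ± 30.9 in proestrus (SD, n = 3). These genes were chosen for their likeness over the same libraries, which fixes much of their pattern.

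Ratios between the receptors within a library do not depend on its size factor, and were used to ask whether the receptors differed unequally between groups. The reads of Htr2a per read of Htr2c averaged 0.365 ± 0.136 in diestrus, 0.635 ± 0.225 in proestrus and 0.611 ± 0.118 in males (SD over 4, 3 and 4 libraries). All diestrus libraries (0.185 to 0.483) were below all males (0.536 to 0.788), a difference in mean log2 ratio of -0.82. Its p was 0.0286 in a two-sided exact permutation test, the smallest that 4 against 4 libraries allow, and 0.343 after adjustment over the 12 ratio tests made. Between proestrus and diestrus the difference of the same ratio was 0.84 (exact permutation p = 0.143, adjusted p = 0.421), and it was 0.54 without diestrus replicate 2. Leaving out diestrus replicate 2 changed the difference from males to -0.52.

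For Htr1a per Htr2c, the ratio averaged 0.289 ± 0.0815 in diestrus, 0.415 ± 0.0995 in proestrus and 0.436 ± 0.116 in males (SD over the same libraries). The difference in mean log2 ratio between proestrus and diestrus was 0.55 (exact permutation p = 0.0857, adjusted p = 0.421), where 3 against 4 libraries cannot give a p below 0.0286. All proestrus libraries (0.345 to 0.529) were above all diestrus libraries (0.167 to 0.333). Without diestrus replicate 2 this difference was 0.31, and without proestrus replicate 3 it was 0.37. For Htr1a per Htr2a, the ratio averaged 0.821 ± 0.148 in diestrus, 0.670 ± 0.0701 in proestrus and 0.723 ± 0.215 in males (SD), with a difference of -0.28 between proestrus and diestrus (exact permutation p = 0.229, adjusted p = 0.421). None of the 12 ratio tests passed after adjustment, but the smallest exact permutation p of 3 or 4 against 4 libraries, 0.0286, becomes 0.343 when it stands alone among 12 tests. The tests were thus too small to settle whether the receptors differed unequally between proestrus and diestrus.

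**Figure D5:**
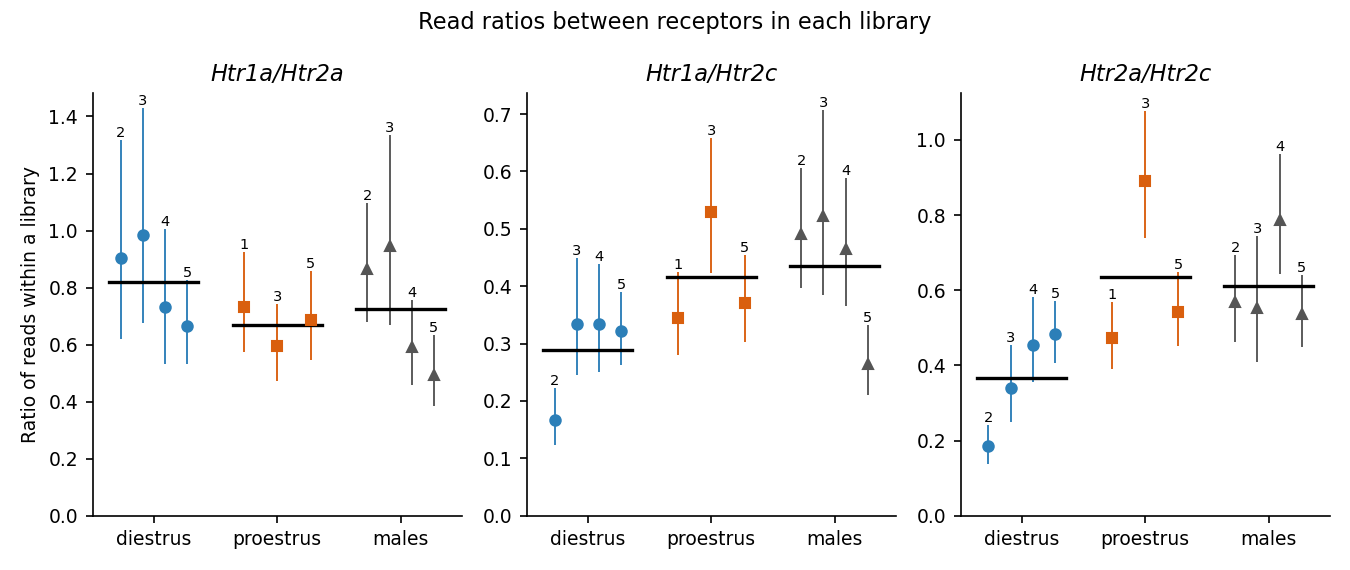
Ratio of reads (linear axes from 0) of Htr1a to Htr2a, Htr1a to Htr2c and Htr2a to Htr2c in each library of the 3 groups, with replicate numbers. Vertical lines are 95% intervals from exact Clopper-Pearson limits, which cover counting error only, and bars are group means. The diestrus points of Htr2a to Htr2c (0.185 to 0.483) lie below all male points (0.536 to 0.788).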

How the data were processed

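The authors trimmed the single-end reads of the poly(A)-selected, unstranded libraries with Trimmomatic, mapped them with TopHat2 2.0.11 and Bowtie2 2.1.0 to the rat assembly Rnor_5.0 with Ensembl annotation, counted uniquely mapped reads per gene with HTSeq-count, and discarded genes under a minimum set from spike-ins. Both deposited tables hold a normalized signal per gene and library, not raw counts. In the table normalized with DESeq2, 100% of the values in each library were whole reads divided by 1 size factor, within a tolerance of 0.01. The edgeR table, an alternative here, held reads multiplied by factors from 0.956 to 1.07 and was not scaled for depth. Because the libraries were unstranded, reads of overlapping antisense genes are not separated.

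The main test was limma 3.58.1 in R 4.3.3 (prior variance following abundance, two-sided) on log2(normalized count + 1), which understates the change of low genes. All 11 libraries entered 1 fit with 3 groups, and females vs males had sex as its sole term. P-values were adjusted by Benjamini-Hochberg over all genes, at 0.05. Alternatives were edgeR 4.0.16 and DESeq2 1.42.0 on the recovered reads, other scalings, pseudocounts and filters, fits of the compared groups alone, the replicate number as a block, and leaving out single libraries. Tests of ratios were exact permutations in scipy 1.17.1. The limma script was tested on simulated counts in which genes varied independently, which checks the code and not its power for these receptors.

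The receptors, their names and the tests were chosen with earlier results of these data known. Groups and replicate numbers came from the sample labels. Besides the receptors, the rule named the gene most like each by Pearson's r, at most 2 of them higher in proestrus. Other genes of serotonin signalling and markers of cell types were to be matched by symbol, but none of the 47357 genes of the reference table had an Ensembl identifier, so these lists are not reported, and no coordinates are given. Intervals cover counting error only where they are of single libraries.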

Additional observations from a re-analysis of the deposited data

Results flagged for a closer look

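In 18 sets of values (each receptor and each ratio in diestrus, in males and in all females), 2 libraries stood apart from the rest of their group by Dixon's test at the 95% level, which chance does in about 1 of 20 sets. Groups of 3 are not tested in this way. In diestrus replicate 2, Htr1a had 0.167 reads per read of Htr2c (56 against 336 reads, 95% interval 0.123 to 0.222 from counting), whereas the other diestrus libraries had 0.321 to 0.333. In male replicate 4, Htr2a had 0.788 reads per read of Htr2c (178 against 226 reads, 95% interval 0.643 to 0.963 from counting), whereas the other males had 0.536 to 0.568. No receptor's own normalized count stood apart in this way.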

How the results depend on the processing

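Between proestrus and diestrus no sign changed in 21 alternatives, many unable to change it. The adjusted p ranged over these alternatives from 0.0205 to 0.241 for Htr1a, from 0.00139 to 0.280 for Htr2a and from 0.351 to 0.883 for Htr2c. Htr1a passed with DESeq2 (log2 fold change 0.76, adjusted p = 0.0351). Like Htr2a, it passed without diestrus replicate 5 or male replicate 3 (1774 and 1147 genes called, against 395). Htr2a passed in the edgeR table (1.07, limma adjusted p = 0.00139). There infinite prior degrees of freedom replaced each gene's spread by that of genes of like abundance. Leaving out single libraries gave 0.65 to 0.98 for Htr1a and 0.88 to 1.35 for Htr2a.

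In the comparisons with males, no alternative led to a call of a receptor, with adjusted p of 0.142 or more throughout. Unadjusted limma p under 0.05 occurred for Htr1a between proestrus and males with the compared groups alone (0.0463), for Htr2c between proestrus and males in the edgeR table (0.0389), for Htr2a between diestrus and males in the edgeR table (0.00634) and with the replicate block (0.0385), and for these comparisons in some fits without 1 library. Leaving out single libraries gave 0.27 to 0.56 for Htr1a, 0.19 to 0.71 for Htr2a and 0.22 to 0.74 for Htr2c between proestrus and males, and 0.073 to 0.55 for Htr2c for females vs males. For females vs males, Htr1a changed sign to 0.0072 in the edgeR table as deposited, to 0.025 with edgeR and to 0.026 with DESeq2, and it ranged from -0.19 to 0.11 with single libraries left out, as did Htr2a from -0.42 to 0.088. For diestrus vs males, Htr2c ranged from -0.036 (without male replicate 3) to 0.44. The log2 ratios between proestrus and males ranged from -0.23 to 0.079 for Htr1a to Htr2a, from -0.27 to 0.072 for Htr1a to Htr2c and from -0.25 to 0.20 for Htr2a to Htr2c, and that of Htr1a to Htr2a for females vs males from -0.071 to 0.24. The cause of these changes was not tested.

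The number of genes called between proestrus and diestrus was 395 with limma, 1076 with DESeq2, 817 with the compared groups alone, and 0 to 1774 with single libraries left out (0 without proestrus replicate 1 or 3, 1774 without diestrus replicate 5). For proestrus vs males it was 13, against 106 in the edgeR table as deposited, 118 with DESeq2, 23 with the compared groups alone and 2 to 26 with single libraries left out. For diestrus vs males it was 20, against 6 when only genes averaging 50 or more normalized counts were tested, 108 in the edgeR table, 117 with DESeq2 and 1 to 88 with single libraries left out. For females vs males it was 21, against 38 in the edgeR table, 77 with DESeq2 and 1 to 24 with single libraries left out.

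The labels do not say what a shared replicate number marks, although males were killed on the same days as females. Deviations from the group means correlated above 0.1 in 3 of 8 same-number pairs (r from 0.0075 to 0.312), all 3 of them among the 4 pairs of diestrus females and males, and in 3 of 32 other pairs. The numbers were not taken as pairs, although 6 of 10 libraries correlated best with their own number. With the replicate block, limma gave 0.82 for Htr1a (adjusted p = 0.0918), 1.15 for Htr2a (0.0702) and 0.18 for Htr2c (0.558) between proestrus and diestrus, and the numbers of called genes were 517, 3, 47 and 18 in the order of comparisons above. Depth limits Htr1a most, with 56 to 139 reads in a library.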
